A study of Mus musculus with 4 samples.

Results

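Platelets are small cell fragments without a nucleus that are shed by megakaryocytes and plug damaged vessels. The genes described here encode their characteristic proteins. They are the granule chemokine genes Ppbp and Pf4, the 4 genes of the receptor for von Willebrand factor (Gp1ba, Gp1bb, Gp9 and Gp5), the collagen receptor gene Gp6, the 2 chains of the fibrinogen receptor (Itga2b and Itgb3) and Alox12, which encodes the platelet 12-lipoxygenase. The 10 genes were found by their names in the scanner files and are read by 14 probes, out of 22328 genes with a RefSeq symbol and 55681 probes in all. They were chosen on measured values, because Ppbp, Gp9 and Gp1ba had some of the lowest values of male Tg E2 over male Tg. That comparison therefore describes the genes and supports nothing, and every other comparison that uses either of these arrays shares values with it.

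Total RNA of hand-picked pancreatic islets from C57BL/6 mice aged 24 weeks was hybridised in 1 colour (Cy3) to 4 Agilent arrays, 1 per group. Male WT stands for wild-type males and male Tg for transgenic males labelled diabetic. Male Tg E2, called the E2 array here, stands for transgenic males 6 weeks after an implant of E2, the usual short name of estradiol. Female Tg stands for females with the transgene. The transgene and the promoter that drives it are not named in the labels, nor is the number of mice behind an array. With 1 array per group there is no replicate error and no test of a condition, and each difference is one between 2 arrays. The errors given are standard errors from the scanner software's own error model, which knows nothing of variation between mice.

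A platelet carries messenger RNA made earlier in the megakaryocyte, so these transcripts appear in RNA of a tissue that holds blood. The receptor for von Willebrand factor captures flowing platelets, Gp6 then signals on collagen, and the fibrinogen receptor links platelets to each other. In bulk RNA fewer platelets and less RNA per platelet cannot be told apart. The presence of beta cell RNA was checked with 9 markers. All 9 (Ins1, Ins2, Iapp, Pdx1, Mafa, Nkx6-1, Slc2a2, Ucn3 and G6pc2) were well above background on each of the 4 arrays. The purity of the islets cannot be read from this, because all 11 acinar markers were also well above background on each array. Between 49.9% and 54.8% of the spots were well above background by the scanner software's call, and no spot was saturated.

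The members lie on 5 chromosomes. Ppbp and Pf4 are neighbours in a chemokine cluster on chromosome 5, with 3245 bases between their probes on mouse build mm9. Gp1ba, Alox12, Itga2b and Itgb3 are on chromosome 11, Gp1bb and Gp5 on chromosome 16, Gp9 on chromosome 6 and Gp6 on chromosome 7. Probe positions on mm9 are chr5:91198970-91199029 for Ppbp, chr5:91202275-91202334 for Pf4, chr6:87729650-87729709 for Gp9 and chr11:70455461-70455520 for Gp1ba. The annotation of the exon each probe reads was not used here.

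The sequences just before the transcription starts are shown because the members were low on the same array and megakaryocyte genes are known targets of GATA and ETS transcription factors. They are from RefSeq, build GRCm38.p6, and give the 250 bases before the annotated start, 5′ to 3′ on the strand of the gene. Capitals mark GATA words, namely AGATAA and its variant TGATAA, and ETS words, namely AGGAAG and its variant CGGAAG, on either strand. Gp1ba (chr11:70638872-70639121, plus strand) and Gp5 (chr16:30310782-30311031, minus strand) hold both kinds of word, and Pf4 (chr5:90772185-90772434, plus strand) and Itga2b (chr11:102469884-102470133, minus strand) hold ETS words alone.
Gp1ba: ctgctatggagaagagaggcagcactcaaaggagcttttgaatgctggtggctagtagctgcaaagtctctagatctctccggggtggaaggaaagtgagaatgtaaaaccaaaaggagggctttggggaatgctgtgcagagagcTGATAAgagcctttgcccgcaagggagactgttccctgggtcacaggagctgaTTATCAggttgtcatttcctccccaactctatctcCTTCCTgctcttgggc
Gp5: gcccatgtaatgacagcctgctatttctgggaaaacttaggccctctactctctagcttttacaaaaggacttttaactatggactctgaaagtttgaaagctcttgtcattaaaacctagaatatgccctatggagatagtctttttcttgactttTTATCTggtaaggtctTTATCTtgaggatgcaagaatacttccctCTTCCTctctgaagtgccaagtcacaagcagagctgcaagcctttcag
Pf4: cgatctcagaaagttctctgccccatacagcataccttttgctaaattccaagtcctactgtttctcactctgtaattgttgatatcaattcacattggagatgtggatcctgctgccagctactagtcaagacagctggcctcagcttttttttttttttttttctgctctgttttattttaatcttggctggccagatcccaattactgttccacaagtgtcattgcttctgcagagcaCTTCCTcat
Itga2b: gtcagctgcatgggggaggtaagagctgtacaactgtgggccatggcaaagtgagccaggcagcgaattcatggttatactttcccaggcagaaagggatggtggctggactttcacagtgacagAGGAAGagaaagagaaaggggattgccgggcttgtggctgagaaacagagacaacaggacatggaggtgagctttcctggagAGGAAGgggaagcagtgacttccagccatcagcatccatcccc

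The promoter table holds 9 of the 10 members, and Itgb3 has no entry. In Gp1ba the GATA words begin 104 and 51 bases before the start and the ETS word 16 bases before it. In Gp5 they begin 93 and 77 bases before the start, and the ETS word 48. The ETS word of Pf4 begins 9 bases before the start, and those of Itga2b 125 and 43. A GATA word stood in 3 of the 9 windows, against 16.6% of 32851 promoters, an ETS word in 6 of 9, against 39.2%, and both in 2 of 9, against 5.49%. None of these words was found in the windows of Ppbp and Alox12. A match of 6 letters is a description of the sequence and not a binding site.

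Levels are log2 signals relative to the 75th percentile of the same array, so 0 is that percentile and 1 unit is a factor of 2. Each level is compared over the arrays within 1 probe, never between probes. Only the summed signals of gene lists, given further on, add several probes. A gene with several probes is represented by the one with the highest mean level. All 10 genes were well above background on the male WT, male Tg and female Tg arrays and 9 were on the E2 array, the exception being Gp6. By that probe, each of the 10 had its lowest level on the E2 array and its highest on the male Tg array. However, male Tg and female Tg were equal to 2 decimals for Gp1bb and within 2 standard errors for Gp5 and Itga2b. The 9 members well above background on all 4 arrays had this order in 9 of 9 cases, against 2.86% of 13888 such genes. The order of the male Tg and E2 arrays was fixed by the choice of members. That choice also favours genes that are lowest on E2 and highest on male Tg over all 4 arrays. The 9 of 9 is therefore a description and supports nothing.

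**Figure D1:**
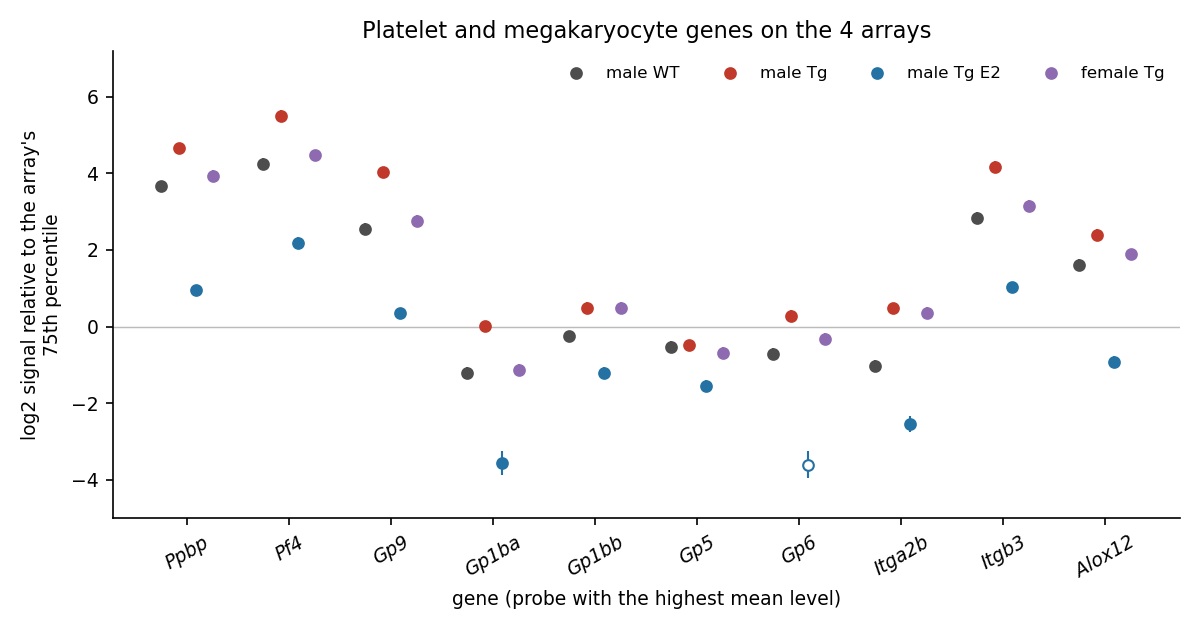
Level of each of the 10 platelet and megakaryocyte genes on the 4 arrays (vertical axis, log2 signal relative to the array's 75th percentile; points are single arrays, bars the scanner software's standard error, the open point is not well above background). The E2 point is the lowest and the male Tg point the highest for every gene, from 0.95 against 4.65 for Ppbp to −1.55 against −0.49 for Gp5.

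The granule chemokine genes had some of the widest spreads over the arrays. Ppbp encodes the precursor of several CXC chemokines that attract neutrophils. Its level was 3.67 on the male WT, 4.65 on the male Tg, 0.95 on the E2 and 3.94 on the female Tg array. The E2 array stood apart from the other three, and Ppbp was 13-fold lower there than on the male Tg array (−3.70 ± 0.20 log2, standard error), the 4th lowest of 14616 measured genes. Pf4, whose product binds heparin, had levels of 4.26, 5.51, 2.19 and 4.47 in the same order. It was 9.97-fold lower on the E2 than on the male Tg array and 4.18-fold lower than on the male WT array. Ppbp was 6.59-fold lower than on the male WT array. The male WT and female Tg levels of both genes lay within 2 standard errors of each other.

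Of the other chemokine genes named in the cluster, Cxcl1 alone could be measured, and its order was different. Cxcl2, Cxcl3, Cxcl5 and Cxcl15 were not well above background on any array. Cxcl1, a neutrophil chemokine gene, had levels of −3.76, −0.53, −2.51 and −1.40, lowest on the male WT array and not on the E2 array. Its difference of E2 over male WT was 1.26 log2, against −2.72 for Ppbp and −2.06 for Pf4. However, the male WT level of Cxcl1 was not far above the lowest clear level of that array (−4.26), so its difference is less firm.

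The receptor for von Willebrand factor is built of the products of Gp1ba, Gp1bb, Gp9 and Gp5, and its genes split by size of difference. Gp1ba, the ligand-binding chain, had levels of −1.20, 0.01, −3.56 and −1.14, in the order male WT, male Tg, E2 and female Tg. Gp9, the small chain needed for the complex to reach the surface, had levels of 2.55, 4.03, 0.35 and 2.76. The E2 array was the low one for both, with 11.9-fold and 12.8-fold lower signals than male Tg, and 5.16-fold and 4.58-fold lower signals than male WT. The Gp1ba level on E2 was close to the lowest clear level of that array (−3.74), so its fold values are less firm than those of Gp9. Under other ways of processing, the Gp1ba difference shrank to as little as −2.01 log2 against male Tg and −1.09 against male WT. Gp1bb, the chain linked to Gp1ba by a disulfide bond, had levels of −0.25, 0.50, −1.21 and 0.50. It was 3.28-fold lower on E2 than on male Tg, and 1.95-fold lower than on male WT. Gp5, the chain that thrombin cleaves, had the narrowest spread, with levels of −0.53, −0.49, −1.55 and −0.68. Its difference of E2 over male Tg was −1.06 ± 0.22 and over male WT −1.02 ± 0.22, just past 2-fold in both, and it fell short of 2-fold after normexp background correction (−0.78 and −0.70).

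Gp1bb shows how far a value can rest on the probe. The sequence of its probe that was well above background on all 4 arrays is given with that of the Itga2b probe, because these are the members whose probes need a remark: the Itga2b probe spans 209 bases of the genome and so is not 1 unbroken stretch of it. Both are 60 bases long, from the scanner files, with no letters marked. On mm9 they lie at chr16:18621107-18621166 and chr11:102319453-102319661, both on the minus strand.
Gp1bb probe: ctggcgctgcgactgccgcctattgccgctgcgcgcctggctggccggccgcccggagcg
Itga2b probe: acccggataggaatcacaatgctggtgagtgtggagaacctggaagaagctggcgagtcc

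The Gp1bb probe is 80.0% G or C and the Itga2b probe 55.0%. Of the other 2 Gp1bb probes, which lie upstream at chr16:18621535-18621594 and chr16:18621717-18621776, 1 was well above background on the female Tg array alone and the other on no array, so Gp1bb rests on 1 probe. Septin5, the next gene to Gp1bb in the RefSeq order, had levels of −0.22, −0.88, −0.46 and −0.20. It was lowest on the male Tg array, where Gp1bb was highest together with female Tg, and its difference of E2 over male Tg was 0.42 against −1.71 for Gp1bb.

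Gp6, the collagen receptor that pairs with the Fc receptor gamma chain, was at −0.71 on male WT, 0.28 on male Tg and −0.31 on female Tg. On the E2 array its signal was not well above background, so no measured difference is given. For probes clear on 1 array of a pair, a bound is used. It sets the clear signal against the higher of the dim probe's own level and the lowest level well above background on the dim array. The error of the dim signal is left out. For Gp6 its own E2 level (−3.60 ± 0.36) was the higher, so its values are plain differences from a dim signal and no firm bounds. By them Gp6 was 14.8-fold lower on the E2 array than on the male Tg array, 7.44-fold lower than on male WT, and 9.77-fold lower than on female Tg. Fcer1g, which encodes the gamma chain and is active in many myeloid cells, had levels of 2.73, 3.52, 2.67 and 3.22. Its difference of E2 over male WT was −0.06 log2.

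The fibrinogen receptor genes had their lowest levels on the same array. Itga2b, the platelet-restricted alpha chain, had levels of −1.02, 0.48, −2.54 and 0.36. It was 8.06-fold lower on E2 than on male Tg and 2.86-fold lower than on male WT, and this gap to male WT was 1.74-fold after normexp correction. Itga2b was also 2.61-fold higher on female Tg than on male WT. Among the probes that represent the genes, it was the only one past 2-fold between those arrays. Itgb3, the beta chain, which other cells also use, had levels of 2.84, 4.17, 1.03 and 3.16. It was 8.81-fold lower on E2 than on male Tg and 3.50-fold lower than on male WT. A dim Itgb3 probe gave a bound of at least 1.67-fold lower for E2 against male Tg. Between female Tg and male WT this dim probe was also past 2-fold, 2.03-fold higher on female Tg (1.02 ± 0.42 log2). Itgav, the alpha chain with which Itgb3 pairs outside platelets, had levels of 0.50, −1.14, −0.51 and −0.71, a different order with the lowest level on male Tg.

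Alox12 encodes an enzyme that adds oxygen to arachidonic acid. Its levels were 1.61, 2.40, −0.93 and 1.88, so it was 10-fold lower on E2 than on male Tg (−3.32 ± 0.21 log2) and 5.81-fold lower than on male WT. A dimmer Alox12 probe was well above background on the other 3 arrays and not on E2, with bounds of at least 2.64-fold and at least 1.96-fold lower. On this dimmer probe the highest level was on female Tg (−2.14) and not on male Tg (−2.34), a difference of 0.20 ± 0.27 log2. Of the other lipoxygenase genes, Alox8 and Alox12e were not well above background on any array, Alox15 was so on male WT alone, and Alox12b and Alox5 on 3 arrays each. Alox5, the leukocyte 5-lipoxygenase gene, was lower on E2 than on male Tg (−1.51) and higher on male Tg than on male WT (1.97), as Alox12 was. Its E2 level lay above male WT (0.47), but little can be read from this. Its levels on male WT (−4.11) and E2 (−3.64) were close to the lowest clear levels of those arrays (−4.26 and −3.74). Aloxe3, an epidermal type lipoxygenase gene, was measured on all 4 with levels of 0.57, −1.89, −0.66 and −0.70, lowest on male Tg.

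E2 set against male Tg addresses what goes with the implant in transgenic males. Of the pair, male Tg alone is labelled diabetic, so the implant and a difference in diabetes cannot be told apart. Of 9 measured members, 9 were at least 2-fold lower and 0 higher, with a median of −3.32 log2. Of all 14616 genes measured on both arrays, 8.0% were at least 2-fold lower and 2.55% at least 2-fold higher, and their median was 0.12. This is the comparison on which the members were chosen, so nothing is read from the count. Within it, 7 members lay between −3.01 (Itga2b) and −3.70 (Ppbp), while Gp1bb (−1.71) and Gp5 (−1.06) had smaller differences.

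**Figure D2:**
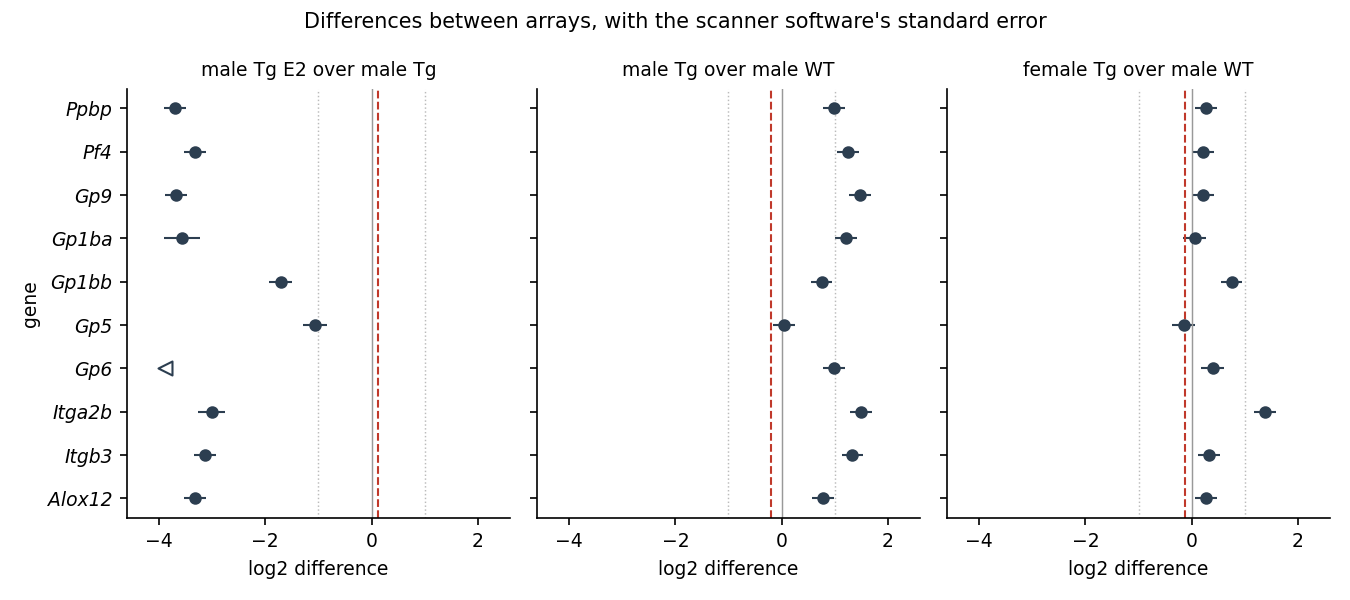
Log2 difference of each member (horizontal axis) in 3 comparisons, with the scanner software's standard error as bars, dotted lines at 2-fold and a dashed line at the median of all measured genes. The triangle is Gp6, which was dim on E2 and 3.88 log2 lower there by its own level. Female Tg and male WT differ least, with Itga2b at 1.38 farthest out.

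Male Tg set against male WT addresses what goes with the transgene and the diabetes. Here 5 of 10 measured members were at least 2-fold higher and 0 lower, with a median of 1.1 log2. The same thresholds were passed upward by 15.6% and downward by 8.68% of 14382 measured genes, whose median was −0.21. The members past 2-fold were Itga2b (1.5), Gp9 (1.48), Itgb3 (1.33), Pf4 (1.25) and Gp1ba (1.21). Gp6 (0.99) and Ppbp (0.98) lay just inside the threshold, Alox12 was at 0.79 and Gp1bb at 0.75. Gp5 at 0.04 lay within 2 standard errors of 0. The male Tg array is shared with the comparison that chose the members, which favours genes that are high on it.

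Against male WT, the E2 array had 8 of 9 measured members at least 2-fold lower and 0 higher, with a median of −2.06 log2. Among 14584 measured genes 2.64% were at least 2-fold lower and 8.82% higher, with a median of −0.09. Gp1bb at −0.96 lay just inside the threshold. Ppbp was the 8th lowest and Alox12 (−2.54) the 10th lowest gene of that comparison. The low E2 values are the ones that chose the members, so this count too is a description.

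Between female Tg and male Tg, 4 of 10 members were at least 2-fold lower and 0 higher (median −0.65). The shares of all 14207 measured genes were 8.57% and 3.51%. Gp9 (−1.27), Gp1ba (−1.15), Pf4 (−1.04) and Itgb3 (−1.01) were the 4, most of them close to the threshold, and 2 passed it after quantile normalization and 1 after normexp. Gp1bb, Gp5 and Itga2b lay within 2 standard errors of 0. Female Tg over E2 had 8 of 9 members at least 2-fold higher and 0 lower (median 2.41), against 3.2% and 4.34% of 14291 genes, and Gp5 at 0.87 was the exception.

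Female Tg and male WT are the only pair in which neither array took part in choosing the members. Of 10 members 1 was at least 2-fold higher and 0 lower, with a median of 0.27 log2, where 7.63% of 14214 genes passed 2-fold upward, 3.48% downward and the median was −0.12. Apart from Itga2b (1.38 ± 0.21) and Gp1bb (0.75 ± 0.21), 8 of 10 members lay within 2 standard errors of 0, from Gp5 at −0.15 to Gp6 at 0.39. These counts use 1 probe per gene. The dimmer probes of Itgb3 (1.02 ± 0.42) and Alox12 (0.63 ± 0.26) lay beyond 2 standard errors of 0. Another Gp1bb probe, clear on female Tg alone, was at least 2.37-fold higher there. By the probe that represents each gene, the E2 level lay below female Tg and male WT in every member. The male Tg level lay above both, except that it equalled the female Tg level for Gp1bb.

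Other platelet genes were divided into 4 lists by role, without the members. Of 21 receptor and adhesion genes, 16 were measured in E2 over male Tg, with 6 at least 2-fold lower, 1 higher and a median of −0.76 log2. Treml1, a granule receptor, was at −3.35, the podoplanin receptor gene Clec1b at −2.99 and the ATP-gated channel gene P2rx1 at −2.39. The ADP receptor gene P2ry1 was the one higher (1.80). Against male WT the same E2 array had Treml1 at −1.96 and Clec1b at −1.47, whereas P2rx1 was at 0.76, and 4 of 16 were at least 2-fold lower and 1 higher (median 0.00). In male Tg over male WT 9 of 18 were higher and 2 lower (median 1.02), led by P2rx1 (3.15), Cd226 (2.31), Cd36 (2.19) and Ptgir (2.02). Selp, which encodes P-selectin, and Cd226 were not well above background on E2. Selp was 3.27-fold lower there than on male Tg by its own dim level, and Cd226 at least 5.92-fold lower.

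Of 16 granule and secreted protein genes measured in E2 over male Tg, 7 were lower and 0 higher (median −0.95), with Mmrn1, which encodes a factor V carrier, at −1.96 and Vwf at −1.95, Tgfb1 at −1.42 and Unc13d at −1.23. Of 15 measured in male Tg over male WT 6 were higher and 0 lower (median 0.74), including Mmrn1 (1.82), Vwf (1.44) and Unc13d (1.06). Against male WT none of 15 passed 2-fold on the E2 array (median −0.16), where Vwf was at −0.51. Endothelial cells also make Vwf.

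Signalling, lipid enzyme and cytoskeleton genes included 15 of 20 lower and 0 higher in E2 over male Tg (median −1.42). The signalling regulator gene Rgs18 was at −3.03, the protein kinase C substrate gene Plek at −2.49, Fermt3, whose product activates integrins, at −2.46, and Gng11 at −2.25. Tubb1, the platelet beta tubulin gene, was at least 6.37-fold lower. In male Tg over male WT 16 of 21 were higher and 1 lower (median 1.52), with Syk (2.86), Pla2g4a (2.63), Btk (2.54) and Mylk (1.95) the farthest. Many of these are also active in leukocytes or smooth muscle. In E2 over male WT 3 of 20 were lower and 2 higher, with a median of 0.00 log2, and the 3 were Fermt3 (−1.27), Plek (−1.18) and Rgs18 (−1.13).

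Megakaryocyte transcription factor genes had 5 of 13 lower and 0 higher in E2 over male Tg (median −0.10). Without the background filter, which lets in dim genes, the median was −0.82. Lyl1 was at −1.48, Runx1 at −1.33, Zfpm1, which encodes the GATA1 cofactor, at −1.10 and Tal1 at −1.08. Gata1 and Nfe2, which direct megakaryocyte maturation and platelet release, were not well above background on the E2 array. They were at least 5.92-fold and at least 13.7-fold lower there than on the male Tg array. In male Tg over male WT 8 of 14 were higher and 0 lower (median 1.23), including Nfe2 (2.35), Lyl1 (2.30), Zfpm1 (1.78) and Hhex (1.75). Against male WT the E2 array had 0 of 12 lower and 1 higher (median 0.25), and the one higher was Hhex (1.15). Hhex is also a delta cell gene of the islet and stands on the list of alpha and delta cell markers as well. Mecom was not well above background on any array.

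The likeness of other genes to the members was measured on levels centred on each gene's mean over the 4 arrays, with levels below an array's lowest clear signal raised to it. The median centred profile of the 10 members was 0.21 on male WT, 1.36 on male Tg, −1.99 on E2 and 0.49 on female Tg. Among 15318 other genes, ranked by the largest gap to that profile over the 4 arrays, the 10 nearest included Treml1 (0.17 log2), Mpig6b (0.26), Clec1b (0.43), Slc6a4 (0.45), Fermt3 (0.50), Gata1 (0.53), Rgs18 (0.55), Tubb1 (0.56) and Nrgn (0.57). Of these Mpig6b, which encodes an inhibitory platelet receptor, the serotonin transporter gene Slc6a4 and the calmodulin-binding protein gene Nrgn are on none of the 4 lists. Slc6a4 was at −2.91 in E2 over male Tg and at 1.31 in male Tg over male WT. The members themselves lay between 0.13 (Pf4) and 1.26 (Gp5) from the profile, so Gp5 and Gp1bb (0.90) were farther from it than any of the 10 nearest genes.

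**Figure D3:**
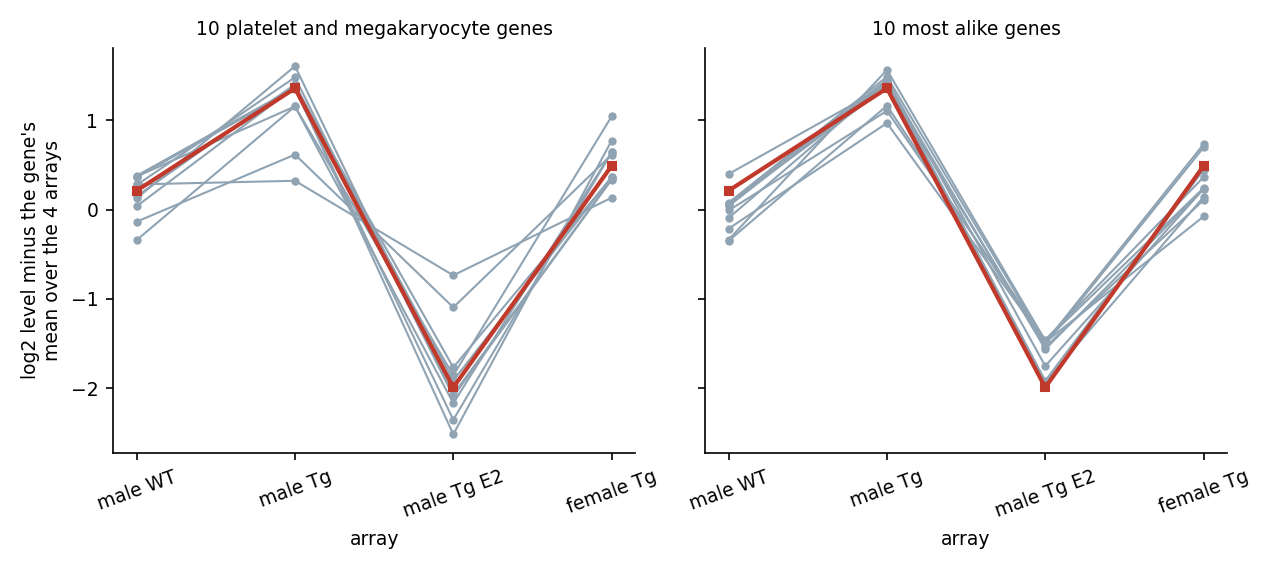
Centred log2 levels on the 4 arrays (vertical axis, level minus the gene's mean) for the 10 members (left) and the 10 genes most like them (right). Each thin line joins the values of 1 gene, the thick line is the members' median profile, with 1.36 on male Tg and −1.99 on E2, and the 2 shallow lines on the left are Gp1bb and Gp5.

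Markers of other blood cells differed between the same arrays. The erythrocyte list has 15 genes, of which 10 were measured in E2 over male Tg, 7 at least 2-fold lower (median −3.15 log2), with Alas2 at −3.57 and Hbb-bt at −3.51. The summed signal of the list, in multiples of the array's 75th percentile, was 354 on male WT, 1616 on male Tg, 190 on E2 and 554 on female Tg. The summed signal of the 10 members was 50.9, 116, 11.5 and 61.5 in the same order. Both sums were highest on male Tg and lowest on E2. A sum mostly follows its brightest probes. On every array the brightest was Hba-a2 in the erythrocyte list and Pf4 among the members. Rhag was among the erythrocyte genes not well above background on any array. Against male WT the erythrocyte median on E2 was −1.0, with 5 of 10 at least 2-fold lower, and that of the members −2.06. The part of red cell content in the members' values was not tested.

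The leukocyte lists had other patterns in the medians of their measured genes, although several granulocyte genes were also lower on E2 than on male Tg. Of 15 granulocyte and progenitor genes 8 were measured in E2 over male Tg, with 3 lower and 1 higher (median −0.23). Without the background filter the median was −0.81. Ctsg, Ltf, Prtn3 and Retnlg were clear on male Tg and not on E2, so this count leaves them out. Ctsg was at least 7.62-fold, Ltf at least 3.73-fold and Prtn3 at least 1.41-fold lower on E2. Retnlg was 1.75-fold lower by its own dim level. Mpo, the granule peroxidase gene, was at −3.76 and was well above background on these arrays alone. Its E2 level (−3.68) was close to the lowest clear level of that array (−3.74), and its difference was −2.23 after normexp. S100a8 and S100a9, which encode granulocyte calcium-binding proteins, were at −1.58 each. Both were highest on male Tg, as the members were. Their lowest levels were on E2, but E2 over male WT was −0.09 for S100a8, close to a tie, and −0.42 for S100a9. The members had a median of −2.06 there. The one higher was Lcn2 (1.39). The summed signal of this list was 109, 123, 118 and 96.2, most of it from Csf3r alone, whose levels were 6.66, 6.79, 6.77 and 6.50, with Ngp, Mmp8 and Mmp9 not well above background on any array. Of 10 lymphocyte genes 8 were lower (median −1.86), and the summed signals were 16.7, 99.6, 26.4 and 69.3. Unlike the members, the lymphocyte genes were higher on E2 than on male WT (median 1.38, 6 of 10 at least 2-fold higher). The macrophage median was 0.05 with 1 of 12 lower, and the summed signals were 62.4, 86.9, 81.3 and 85.6. The 12 endothelial genes had 0 of 11 past 2-fold in E2 over male Tg (median −0.04, Pecam1 at −0.36), with sums of 83.8, 102, 101 and 94.9. The part of any of these cells in the members' values was not tested.

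Pancreatic markers were also compared between the E2 and male Tg arrays. Of 9 beta cell markers 3 were at least 2-fold higher on E2 and 0 lower (median 0.27). These were G6pc2 (2.33), Ucn3 (1.92) and Nkx6-1 (1.11), while Ins2 was at −0.48 and Pdx1 at 0.63. The alpha and delta cell median was −0.35 with 0 of 5 past 2-fold, and it changed sign after quantile normalization (0.15) and with the series table (0.12). The acinar median was −0.72 with 4 of 11 lower, and its sums of 1225, 9093, 5710 and 1322 were far higher on the male Tg and E2 arrays than on the other arrays.

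**Figure D4:**
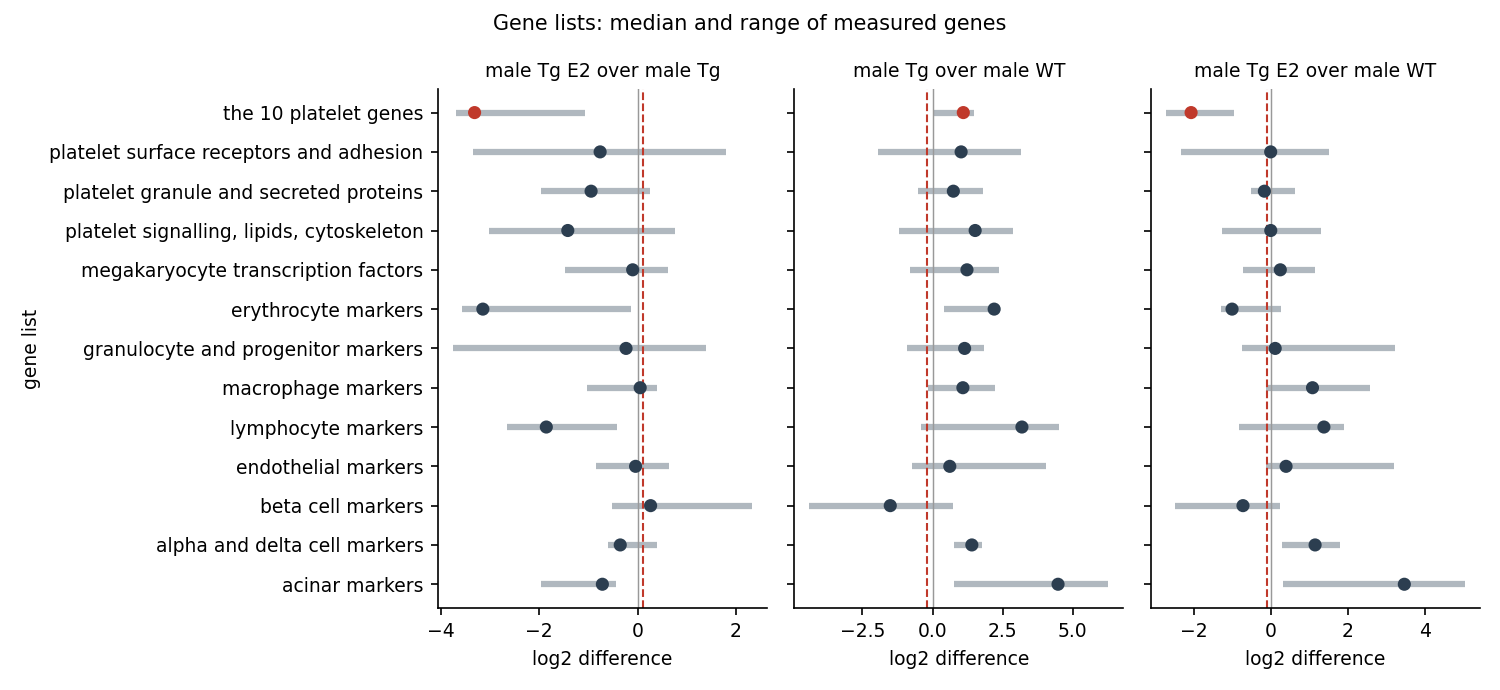
Median (points) and range (bars) of log2 differences over the measured genes of each list in 3 comparisons, with dashed lines at the median of all measured genes. The members (top) had a median of −3.32 in E2 over male Tg and −2.06 in E2 over male WT, where the erythrocyte markers were at −3.15 and −1.0.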

How the data were processed

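Islet RNA was measured on 4 one-colour Agilent arrays, 1 per group. The values are spot intensity on a linear scale in the deposited scanner files, background-subtracted and detrended within each array, per the file headers (Feature Extraction 10.7.1.1, whereas the submitters' processing notes name 9.5.1.1). The deposited series table holds intensity with one shared distribution over the 4 arrays and served as an alternative. No array was scaled to another in the scanner files.

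Processed signals of spots without outlier flags were put on a log2 scale and averaged per probe, and each array was centred on its 75th percentile over all probes that are not controls. Measured means well above background on both arrays compared. Probes were named through a RefSeq table of GRCm38.p6, 27235 by transcript accession, 3581 by symbol and 565 by synonym, and 24300 were left unnamed. Members followed the names in the scanner files. The 2-fold threshold is 1 log2. Named are all members, their partners and neighbours, up to 4 genes per list and comparison past 2-fold, and the 10 most alike genes well above background on at least 2 arrays. The members and lists were chosen with earlier results of these data known. P2ry1, Selp, Mecom, the genes with bounds and the named markers of other cells lie outside this rule and were chosen after their values were seen. Some genes that the rule names are not reported here.

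Quantile normalization, normexp (limma 3.58.1 in R 4.3.3, offset 50), the series table, no background filter, the mean of all probes and differences relative to the median gene were tried. The steps were tested on simulated data with known differences. For probes with at least 5 spots the standard deviation over spots had a median between 0.0656 and 0.0752 log2, an error of spots and not of mice. Python 3.11.15 was used.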

Additional observations from a re-analysis of the deposited data

How the results depend on the processing

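The number of arrays limits the precision, and on the E2 array the signal over background limits Gp6 and the dim probes. Of 342 member differences under the alternatives, 308 moved by less than 1 standard error and 34 by more, 24 of these after normexp. Many of the 308 could not move. Dropping the background filter leaves a measured difference as it was, and averaging probes changes only genes with several measured probes. The count of 308 is therefore no measure of stability. No difference past 2-fold changed sign. The median of the measured members moved by more than 1 standard error after normexp, to −2.82 for E2 over male Tg, 0.89 for male Tg over male WT, −1.75 for E2 over male WT and 1.98 for female Tg over E2. Normexp adds an offset of 50 to every signal, which draws the differences of dim probes toward 0. Relative to the median of all genes the median for male Tg over male WT was 1.30. In female Tg over male Tg the members at least 2-fold lower numbered 2 after quantile normalization, 1 after normexp and 2 with the series table. Differences near 0 changed sign for Gp5 in male Tg over male WT (−0.02 to 0.25), Gp1bb in female Tg over male Tg (−0.10 to 0.04) and Gp1ba in female Tg over male WT (−0.02 to 0.18). Without the background filter the erythrocyte median of E2 over male Tg was −1.16. The comparisons of female Tg with male WT and with E2, and the alternatives for lists, were added after seeing the data. No paired analysis was possible because each group has 1 array and no replicate number.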
